A study of Homo sapiens with 5 samples.

Results

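The genes described here encode the SREBP factors, their regulators and the enzymes of cholesterol and fatty acid synthesis, as expressed in HLF cells, an established line of hepatocellular carcinoma. A list of 32 genes was drawn up by function, and the genes found in each of the 3 deposited tables were kept. These were 31 genes, out of 10976 that every table holds. TM7SF2 was not analysed here.

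The study sequenced RNA from 5 conditions, with 1 sample listed for each. In a knockout experiment, HLF cells that carry a control guide RNA (USP28-Ctrl, labelled sgCtrl) were set beside cells with a guide against the deubiquitinase USP28 (USP28-KO, labelled sgUsp28), which the methods describe as picked single clones. In a re-expression experiment, all cells carried sgUsp28, and received the lentiviral vector pRRL-Ctrl, pRRL-Usp28-WT for the wildtype protein or pRRL-Usp28-Mono for USP28-M, a mutant that does not dimerize. The methods describe puromycin selection before cloning and antibiotic selection after lentiviral transduction, and the supplement names a control clone. No other treatment is listed for any condition. The values used are the authors' average log2 CPM of each gene (counts of the gene scaled to the library's total) over all libraries of an experiment. Values of single libraries or conditions were not analysed here, so that no difference between USP28-Ctrl and USP28-KO, or between USP28-WT, USP28-M and the vector, is given, and no replicate spread stands behind a value. Both re-expression tables carry an identical average for each of their 12342 genes, and therefore count as 1 set of levels.

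Low averages in these tables rise in even steps, from which the depth was worked out. A step of 0.130 CPM in the knockout experiment corresponds to about 7690000 reads over all of its libraries together, and a step of 0.0328 CPM in the re-expression experiment to about 30500000 reads. Of the 1100 lowest genes, 96.9% and 68.8% lay within 0.1 reads of a step. Average USP28 mRNA was 5.15 log2 CPM in the knockout experiment and 9.79 in the re-expression experiment, which includes the USP28 vectors. Of 9 hepatocyte markers, FGB was found in both experiments (64.1 and 9.21 CPM) and SERPINA1 in the re-expression experiment alone (3.69 CPM). ALB, AFP, APOA1, APOB, TTR, HNF4A and TF gave no value. Of 4 epithelial markers, KRT8 (11.18 and 12.02 log2 CPM) and KRT18 (10.66 and 11.21) were found. The 4 mesenchymal markers VIM (11.71 and 11.69 log2 CPM), CDH2 (7.72 and 8.06), FN1 (6.32 and 5.20) and ZEB1 (4.31 and 3.49) were found. CD68 was found (6.86 and 7.73 log2 CPM), whereas the other two leukocyte markers, PTPRC and CD3E, and both endothelial markers gave no value.

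SREBPs are transcription factors held as precursors in the membrane of the endoplasmic reticulum. When membrane sterols are low, the escort protein SCAP carries them to the Golgi, where proteases release the active domain, and when sterols are high, INSIG proteins retain SCAP. SREBP2, encoded by SREBF2, is known mainly for cholesterol synthesis and SREBP1, encoded by SREBF1, for fatty acid synthesis. In liver cells these pathways supply lipoproteins, bile acids and membranes.

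Levels were compared between genes only per length, as CPM per kb of the longest annotated transcript. The family spanned a wide range, from 2.05 CPM per kb for FADS2 to 198 for ACLY in the knockout experiment, and from 2.15 for INSIG2 to 286 for ACLY in the re-expression experiment. On the log2 scale the median member stood at 3.96 and 5.10, and the median protein-coding gene at 3.49 and 3.15. Of the 31 genes, 10 lay in the top 25% of protein-coding genes and 6 in the bottom 25% in the knockout experiment. In the re-expression experiment 18 lay in the top 25% and 1, INSIG2, in the bottom 25%. The tables were normalized separately, and the second one holds more genes of low level, so that a percentile refers to its own table.

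Of the factors themselves, SREBF1 had an average of 4.80 log2 CPM per kb in the knockout experiment and 5.35 in the re-expression experiment. SREBF2 had 3.13 and 4.91 on the same scale. SREBF1 was thus 3.18-fold above SREBF2 in the first and 1.36-fold above it in the second. SCAP, the escort, was at 14.2 and 15.0 CPM per kb, near the middle of all genes. INSIG1 and INSIG2, which encode the retention proteins, were at 5.36 and 2.74 CPM per kb in the knockout experiment. In the re-expression experiment they were at 24.2 and 2.15, a ratio of INSIG1 to INSIG2 of 11.2 against 1.96 before. INSIG2 rests on about 67.1 reads in the knockout experiment, which gives a counting error of 0.18 on the log2 scale.

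Among the 8 genes from acetyl-CoA to squalene, FDPS, the synthase of farnesyl diphosphate, was the highest in each experiment, at 46.5 and 82.2 CPM per kb. FDFT1, the squalene synthase that commits this intermediate to sterols, was at 22.1 and 73.6. ACAT2, the thiolase of the cytosol, had 26.9 and 36.4. PMVK, which phosphorylates mevalonate phosphate, had 33.5 and 34.5. At the other end, MVK, the mevalonate kinase, was the lowest with 4.91 and 10.9 CPM per kb. HMGCS1, which makes HMG-CoA, had 8.62 and 18.5. MVD, the decarboxylase that yields isopentenyl diphosphate, was at 14.7 and 34.3, and IDI1, the isomerase of that product, at 13.5 and 20.5. Enzymes of consecutive steps therefore differed by up to several fold in mRNA per length, with the kinase MVK below PMVK in both experiments.

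Of the 9 genes from squalene to cholesterol, EBP was the highest in the knockout experiment and DHCR7 in the re-expression experiment. EBP, the sterol isomerase, had 35.6 CPM per kb in the knockout experiment and 51.3 in the re-expression experiment. DHCR7, the reductase of the last step from 7-dehydrocholesterol, had 31.2 and 81.3. CYP51A1, the lanosterol demethylase, was at 22.1 and 36.4, and MSMO1, the sterol methyl oxidase, at 19.5 and 34.9. LSS, which cyclizes the epoxide to lanosterol, had 18.1 and 56.4. SQLE, the squalene epoxidase, had 15.6 and 35.6. NSDHL, a decarboxylating dehydrogenase, was at 16.1 and 22.8, and SC5D, the desaturase that makes 7-dehydrocholesterol, at 14.0 and 15.8. HSD17B7, a sterol ketone reductase, was the lowest of these enzymes in each experiment, with 2.74 and 4.84. Its transcribed pseudogene HSD17B7P2 was also in the re-expression tables, and reads may be split between these copies. STARD4, a carrier of cholesterol between membranes, was likewise low with 3.05 and 3.96 CPM per kb.

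The 8 fatty acid genes included the highest member of the family, and in the knockout experiment also the lowest, FADS2. ACLY, which makes acetyl-CoA in the cytosol from citrate, was first in both experiments, with 198 and 286 CPM per kb, and exceeded all other members. FASN, the fatty acid synthase, followed with 59.6 and 107. FADS1, the delta-5 desaturase of polyunsaturated fatty acids, had 50.5 and 86.9, and SCD, the desaturase that makes oleate, had 45.7 and 76.9. ACACA, the acetyl-CoA carboxylase of the cytosol, was at 13.3 and 19.8. ACSS2, which makes acetyl-CoA from acetate, was at 9.34 and 18.5, far below ACLY. FADS2, the delta-6 desaturase that acts upstream of FADS1, had only 2.05 and 3.78 CPM per kb, and ELOVL6, the elongase of palmitate, 4.64 and 3.44. FADS1 was 24.6-fold and 23.0-fold above FADS2. In GENCODE release 29 (GRCh38), FADS1 lies on the minus strand of chromosome 11 from 61799625 to 61829318, within the span that FADS2 covers on the plus strand from 61792980 to 61867354. Some of their exon bases overlap, and without a stated strand setting reads there cannot be told apart.

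The order of the 31 genes was much the same in both experiments. Ranked by level per length, ACLY, FASN, FADS1 and FDPS held places 1 to 4 in each. Spearman's rho across the genes was 0.93 (n = 31 genes, given as a description). The points share transcript lengths and a cell line, and over all 10351 shared protein-coding genes Pearson's r of the averages, not divided by length, was 0.94. Only 6 genes moved by 5 places or more. Neighbours in the order cannot be separated beyond counting error in many cases, such as FDFT1 and CYP51A1 with 22.1 CPM per kb each in the knockout experiment.

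Side by side, the levels of the family stood higher in the re-expression experiment. The re-expression average minus the knockout average, in log2 CPM, had -0.11 as its median over the shared protein-coding genes, and differences are given relative to it. Of the 31 genes, 29 were above it, and the median difference of the family was 0.89, a ratio of 1.86. By a limit of 2-fold, 10 genes of the family were higher, against 246 (2.38%) of all shared protein-coding genes, and 0 were lower, against 6.44%. With an average taken over conditions and no replicate values, no test of a difference was possible. The experiments differ in their cells, mix of USP28 genotypes, vectors, drug selection, libraries and depth, and these cannot be told apart. Cell type markers moved between them as well. Relative to the same median, FGB differed by -2.69, FN1 by -1.01, ZEB1 by -0.71, VIM by 0.09, CDH2 by 0.45, KRT18 by 0.66, KRT8 by 0.95 and CD68 by 0.98. Their part in the differences of the family was not tested. Each average is relative to all reads, so that it gives a share of the RNA and not an amount per cell. More cells that express a gene and more of its mRNA in each cell cannot be told apart either.

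**Figure D1:**
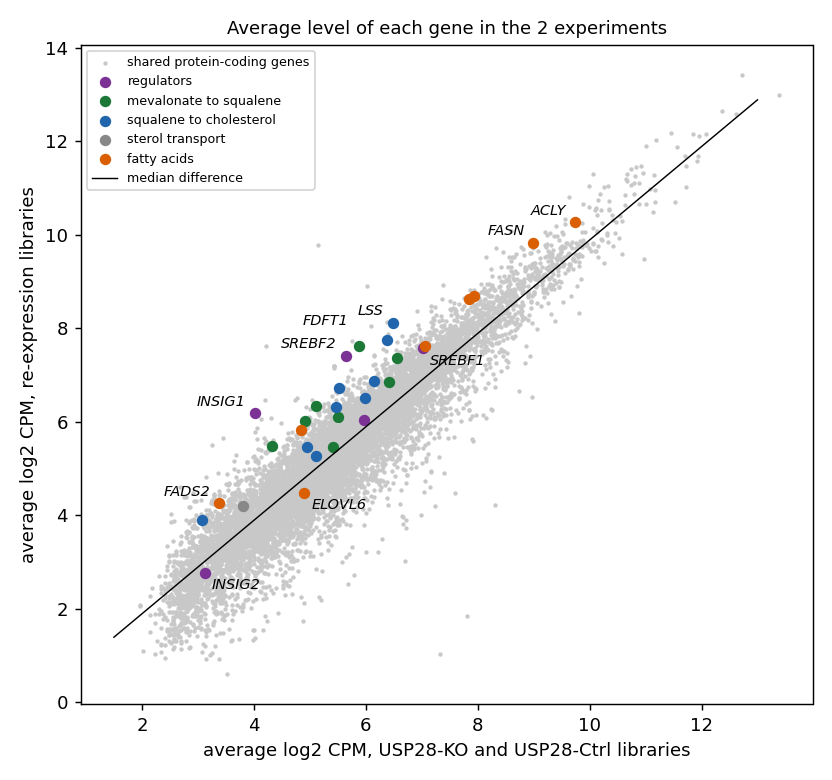
Average log2 CPM of each shared protein-coding gene in the knockout experiment (x axis) and the re-expression experiment (y axis). Grey points are the 10351 genes, coloured points the 31 sterol and fatty acid genes by role, and the line marks the median difference of -0.11; most coloured points lie above it, INSIG1 farthest.

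INSIG1, itself a known target of SREBPs, had the largest difference of the family. Its averages were 4.01 and 6.18 log2 CPM, which relative to all genes is a difference of 2.28 (counting error 0.13), or 4.86-fold. For SREBF2 the averages were 5.64 and 7.42, and the difference was 1.89 (counting error 0.076), or 3.70-fold. These differences stood above those of 99.94% and 99.87% of shared genes. SREBF1 (0.66, counting error 0.049) and SCAP (0.19, counting error 0.073) differed less, and SCAP came to 0.0032 within bins of like GC content. INSIG2 differed by -0.24 (counting error 0.20), and its sign turned to 0.48 within those bins.

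All 17 enzymes of the sterol pathway had positive differences, with a median of 0.93, although that of PMVK turned to -0.053 within bins of GC content. FDFT1 (1.84), LSS (1.75) and DHCR7 (1.49) led, followed by MVD (1.34), SQLE (1.30), MVK (1.27) and HMGCS1 (1.21), which makes 7 genes past 2-fold. They are spread over the pathway, from HMG-CoA to the last reductase. MSMO1 (0.95), FDPS (0.93), HSD17B7 (0.93), CYP51A1 (0.83) and IDI1 (0.71) followed. Lower in the order were EBP (0.64), NSDHL (0.62), ACAT2 (0.55), SC5D (0.28) and PMVK (0.15). STARD4 had 0.48. Within bins of GC content, MSMO1 (1.52), STARD4 (1.21), HSD17B7 (1.16) and CYP51A1 (1.06) also passed 2-fold, and SC5D came to 0.76. ACAT2 (0.32), EBP (0.41) and NSDHL (0.39) were lower there. HSD17B7 passed within bins of average level too (1.08).

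In the fatty acid group 7 of 8 genes had positive differences, with a median of 0.88. ACSS2 (1.10) alone passed 2-fold, by less than its counting error of 0.10 above the limit. It did not pass within bins of GC content (0.91) or without centring (0.99). FADS2 (0.99), FASN (0.95), FADS1 (0.89), SCD (0.86), ACACA (0.68) and ACLY (0.65) lay below it. FADS2 passed within bins of average level (1.07) and of transcript length (1.00). ELOVL6 (-0.32, counting error 0.11) was the other gene below the median of all genes. Its difference was -0.082 within bins of GC content.

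**Figure D2:**
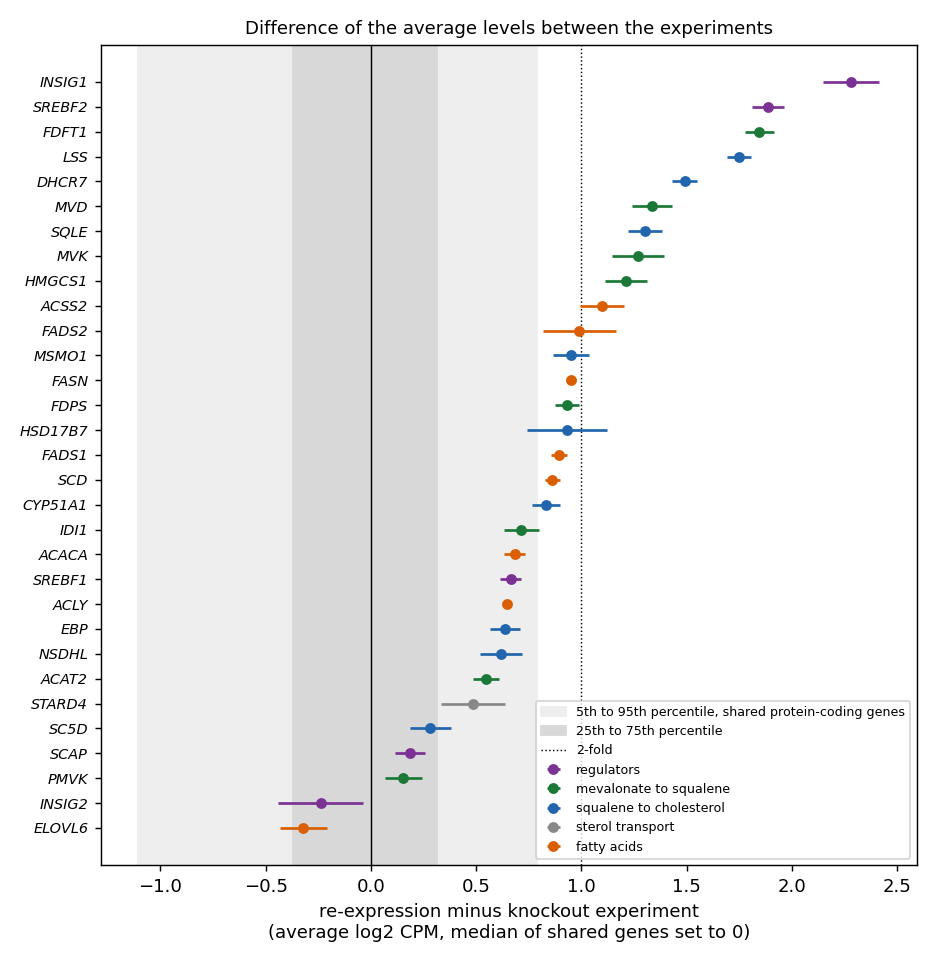
Difference of the averages, re-expression minus knockout experiment, in log2 CPM with the median of shared protein-coding genes set to 0, for each of the 31 genes. Bars are counting errors (1 SE), which leave out the spread between libraries; shaded bands hold the central part of all shared genes, and 18 of the 31 genes lie above the 95th percentile.

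Across genes, the difference between the experiments moved with transcript GC content (Spearman's rho 0.48, n = 10351 genes, given as a description). The median transcript of the family has a GC content of 50.2%, that of all shared genes 47.5%. Within 20 bins of GC content, 13 members were at least 2-fold higher, against 1.83% of shared genes. Within bins of transcript length there were 11 members, against 2.31% of shared genes, and within bins of average level 12, against 2.46%. Average level itself moved with the difference (rho 0.25), transcript length hardly (rho -0.016).

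Other genes of the pathway, from lists fixed by function, are given by counts and by their highest and lowest genes in the knockout experiment. Of 9 genes for escort, proteolysis and degradation of the SREBP machinery, 4 had positive and 5 negative differences, with a median of -0.055. PGRMC1 (55.5 and 49.5 CPM per kb), a haem-binding membrane protein, and ERLIN1 (35.3 and 28.2), which binds the sterol sensor in cholesterol-rich membrane, were the highest of them, and SEC24D (8.05 and 12.1), a coat protein of transport vesicles, and RNF139 (8.40 and 7.86), a ubiquitin ligase, the lowest. MBTPS1 and MBTPS2, which encode the proteases that cleave SREBPs, differed by 0.48 and -0.19. Of 13 genes of other sterol routes, 11 were in both experiments, 6 with positive and 5 with negative differences and a median of 0.0095. Here LBR (46.4 and 42.6), a sterol reductase of the nuclear envelope, and NPC2 (44.4 and 41.7), a carrier of the lysosome, were highest, and MYLIP (1.81 and 0.834), a ligase that degrades lipoprotein receptors, and ABCA1 (3.44 and 1.01), a cholesterol exporter, lowest. ABCA1 and MYLIP, known targets of the sterol-activated LXR factors, differed by -1.65 and -1.01. Of 15 genes of other fatty acid routes, 14 were in both experiments, with 8 positive and 6 negative differences and a median of 0.13. ELOVL1 (105 and 112), an elongase of very long chains, and ELOVL5 (46.9 and 54.8) were highest, and ACACB (1.00 and 0.899), the carboxylase of mitochondria, and DGAT2 (1.77 and 1.72), a triglyceride synthase, lowest. LPIN1, a phosphatidate phosphatase, differed by 1.53 and was the only one of these 14 past 2-fold.

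Promoter sequences were taken from RefSeq (GRCh38.p14), as windows of 250 bases before to 50 bases after each annotated start. Of the 31 genes, 27 had a window, and ACAT2, FDFT1, SQLE and FASN did not. SREBPs bind sterol regulatory elements, usually together with NF-Y at a CCAAT box or Sp1 at a GC box. On both strands, the core TCACNCCAC was found for 1 member, SREBF2, and for 1.39% of all 27305 genes with a window. A longer form of 10 letters, which contains that core, was also found for SREBF2, and for 0.0586% of all genes. Other forms of the element and sites outside the windows were not searched, so a missing match does not mean a missing element. CCAAT was present for 20 of the 27 members (74.1%), for 39.7% of all genes and for 44.1% of the 8561 genes in both experiments. GGGCGG was present for 26 members (96.3%), for 48.3% of all genes and for 78.2% of those in both experiments. The E-box CACGTG, which MYC with MAX and other factors can bind, was found for SCAP, INSIG1, LSS and SC5D, that is 14.8% of members and 13.1% of the genes in both experiments.

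Windows were at hand for 8 of the 10 genes at least 2-fold higher in the re-expression experiment, and all 8 held CCAAT, as did 12 of the other 19 members. Of all 199 genes past this limit with a window, 43.7% held CCAAT. This split was made after the differences had been seen and is a description. For each of these 8 genes a stretch of 30 bases with 1 of its CCAAT boxes is shown, and for SREBF2 also the sterol regulatory element, 5′ to 3′ on the strand of the gene, with the match in capitals, ATTGG being CCAAT read from the other strand.
SREBF2, sterol regulatory element, chr22:41832962-41832991, plus strand: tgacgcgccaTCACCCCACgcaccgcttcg
SREBF2, CCAAT box, chr22:41832987-41833016, plus strand: cttcgctcgcccATTGGctgagatgagcct
INSIG1, CCAAT box, chr7:155297696-155297725, plus strand: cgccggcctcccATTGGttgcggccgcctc
LSS, CCAAT box, chr21:46228907-46228936, minus strand: cgcggcgctctgATTGGttgcgtgggcgtc
MVD, CCAAT box, chr16:88663194-88663223, minus strand: gactcgccgctgATTGGtcggcgcgcgagc
HMGCS1, CCAAT box, chr5:43313550-43313579, minus strand: agtttccttttgATTGGtagaagccggact
DHCR7, CCAAT box, chr11:71448470-71448499, minus strand: caggctcctcgaCCAATcacggggcgcgga
MVK, CCAAT box, chr12:109573688-109573717, plus strand: aacacctattgaCCAATgttcaagcctatt
ACSS2, CCAAT box, chr20:34874854-34874883, plus strand: gccctccttgggATTGGgcagactctcggt
In SREBF2 the element ends 125 bases before the annotated start and the CCAAT box begins 106 bases before it, so both lie upstream of the gene. A match in letters is no proof of a bound site, and binding was not measured here.

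Reads that overlapping genes share could affect single values. In GENCODE release 29, exon bases of ACAT2 overlap those of TCP1 and SOD2, exon bases of MVK those of MMAB, exon bases of SREBF1 those of RAI1, and exon bases of FADS2 those of FEN1. All of these neighbours are in the tables of both experiments. Apart from FEN1 they lie on the opposite strand, and the strand setting of the counting is not given in the sources used here.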

How the data were processed

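Total RNA of HLF cells was sequenced, with 1 sample listed for each of 5 conditions. Per the labels, the authors used bcl2fastq 2.20, STAR 2.5.4 and edgeR 3.26.8 with genome build hg19. The counting, the filter on low genes and the number of libraries are not given in the sources used here. The deposited tables give each gene an average log2 CPM over the libraries of a fit. Their other columns hold the authors' fold changes, F statistics, p-values and adjusted p-values and were not used, so that conditions were not compared. In the knockout table the header is shifted by 1 column, and values were read by position. Columns of per-sample values that match no sample numbered 0.

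The members and lists were chosen with earlier results of these data known. Named are all members, the 2 highest and 2 lowest of each other list by level per length, and USP28; ABCA1, MYLIP, MBTPS1, MBTPS2 and LPIN1 were named for their differences or role after values were seen. The value of 1 listed gene is not reported here. Lengths and GC content came from GENCODE release 29, matched by NCBI gene ID, for 97.1% and 95.9% of genes and all 31 members. Level per length is log2 CPM minus log2 of the longest transcript in kb. Percentiles refer to the 10431 and 11276 protein-coding genes with a length. The comparison of the experiments, with differences centred on their median or within 20 bins, was added after the data had been seen. Counting errors come from reads worked out from the step of low averages, as 1 SE, and cover counting only, not differences between libraries. Reads are CPM divided by the step, with no allowance for a constant that may have been added to the counts. Such a constant would make the reads of low genes too high and their counting errors too small. No test was run. Centring was tested on simulated data, and the step on simulated counts at a depth like that of the knockout experiment. The step at the depth of the re-expression experiment was not tested in this way. The scripts ran in Python 3.11.15, with scipy 1.17.1 for rank correlations, pandas 2.3.3 and numpy 2.4.6 for tables, and matplotlib 3.10.9 for plots.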

Additional observations from a re-analysis of the deposited data

How the results depend on the processing

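Counts of members in the top 25% of genes stayed within 1.5 times the reported 10 and 18 under median transcript length, coding length, no division by length, genes of every table only, no filter to protein-coding genes and a minimum of 3 for average log2 CPM. They ran from 7 to 10 in the knockout experiment and from 16 to 19 in the re-expression experiment. The rank correlation between the experiments was 0.89 to 0.93. The core of the sterol regulatory element was found for 1 member in the shorter window too. Settings for the comparison of the experiments were chosen after seeing the data. The number of members at least 2-fold higher was 9 without centring and 11 to 13 within bins, and with a limit of 1.5-fold it was 24, against 10.5% of all shared genes. No paired analysis was possible because each condition has 1 listed sample and the values used are averages over conditions. For the same reason no library could be left out. Depth limits the genes of lowest level most: HSD17B7, with about 65.1 reads in the knockout experiment, had a counting error of 0.18 on the log2 scale, and ACLY, with about 6600 reads, of 0.018.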
